A study of Mus musculus with 12 samples.

Results

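Slc4a1 encodes anion exchanger 1 (band 3), which swaps chloride for bicarbonate across the cell membrane. It was read out in RNA sequencing of mouse kidney as 1 gene, chosen by its symbol, of the 16383 genes in the table. The 12 libraries fall into 4 groups of 3. WT I/R and KO I/R are kidneys of wild-type mice and of mice labelled Lrrk2 knockout whose left kidney was made ischemic for 30 min at 37 °C and then reperfused (I/R), and whose other kidney was removed. WT sham and KO sham had the same operation, removal of the other kidney included, but no ischemia. The sources used here do not give the reperfusion time, the age and sex of the mice or the design of the Lrrk2 allele. The labels do not say that the libraries come from separate animals, so a p-value measures only the spread between these libraries. Slc4a1 was chosen with its low level after I/R already known. Its values in I/R against sham are therefore a description without a test, while the comparisons between genotypes were tested. The gene lists set beside it were also chosen with earlier results of these data known, which limits what their counts can show.

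In the kidney, Slc4a1 sits in the basolateral membrane of type A intercalated cells, the acid-secreting cells of the collecting duct. These cells pump protons into the urine with a vacuolar H+-ATPase (V-ATPase) on their apical side, and the exchanger returns the bicarbonate left behind to the blood. The same gene makes the most abundant membrane protein of red blood cells, so blood left in a kidney could add Slc4a1 RNA. Mutations of the human gene cause distal renal tubular acidosis or red cell disorders such as spherocytosis.

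Slc4a1 (ENSMUSG00000006574) lies on the minus strand at chr11:102348824-102366203. These coordinates are those of the deposited table, and 98.8% of the table's loci equal those of GENCODE M21 on GRCm38. No other gene of that annotation overlaps it. The annotated transcript Slc4a1-201 has 20 exons and 4545 bases, with its start codon in exon 2. The red cell protein starts at the first ATG, while the kidney form comes from an internal promoter, lacks the N-terminal stretch and starts at an ATG further on in the same frame. The first 270 coding bases, exons joined, between chr11:102359346-102361395 are shown because this stretch separates the forms. Capitals mark the 5 in-frame ATG codons, which are codons 1, 4, 41, 79 and 80.
Slc4a1-201: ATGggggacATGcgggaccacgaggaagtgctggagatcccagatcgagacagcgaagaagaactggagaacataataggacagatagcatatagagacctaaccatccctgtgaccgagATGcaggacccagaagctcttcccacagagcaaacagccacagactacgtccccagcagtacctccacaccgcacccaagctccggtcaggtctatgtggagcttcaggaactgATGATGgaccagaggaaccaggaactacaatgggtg
The deposited values are per gene, so reads of the red cell form and of the kidney form are added together and cannot be told apart here.

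The table totals lie between 4678827 and 5456261 counts per library, and 5048 genes passed the filter on low counts and were tested. Lrrk2 itself had 401, 235 and 793 counts in KO I/R against 320, 381 and 464 counts in WT I/R. It had 598, 1651 and 207 counts in KO sham against 2053, 1284 and 1839 counts in WT sham. The genotypes overlap after both operations, and reads are present in all libraries labelled knockout, so the name KO carries the label only. In KO I/R 2 the count and FPKM columns do not match, with 533 genes above 0 in counts and at 0 in FPKM and 936 the other way round. Reads recovered for this library from its FPKM values were used as an alternative. Mitochondrial genes held 24.7% of the table's counts in KO sham 3 and between 5.64% and 10.7% in each of the others.

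Slc4a1 was low in all 6 I/R libraries and high in all 6 sham libraries. WT I/R had 26, 22 and 42 counts, and WT sham had 466, 1109 and 1239 counts. As CPM, the library-scaled count of edgeR with TMM factors, this was 4.74, 4.02 and 7.32 CPM in WT I/R against 98.2, 222 and 244 CPM in WT sham. CPM is relative to the counts of the tested genes, which are only part of each library. The highest WT I/R library lay far below the lowest WT sham library, WT sham 1, whose level was itself under that of WT sham 2 and 3. Of all tested genes, 27.6% had WT I/R libraries that all lay below the WT sham libraries. The level averaged 5.36 ± 1.73 CPM in WT I/R, against 188 ± 78.6 CPM in WT sham (SD, n = 3 each). The log2 change was -5.12 ± 0.46 (SE, 95% interval -6.12 to -4.13), the 24th lowest among 5048 tested genes. Slc4a1 was chosen for this low level, so neither the interval nor the rank is a test of it. The median log2 change of all tested genes was -0.04.

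**Figure D1:**
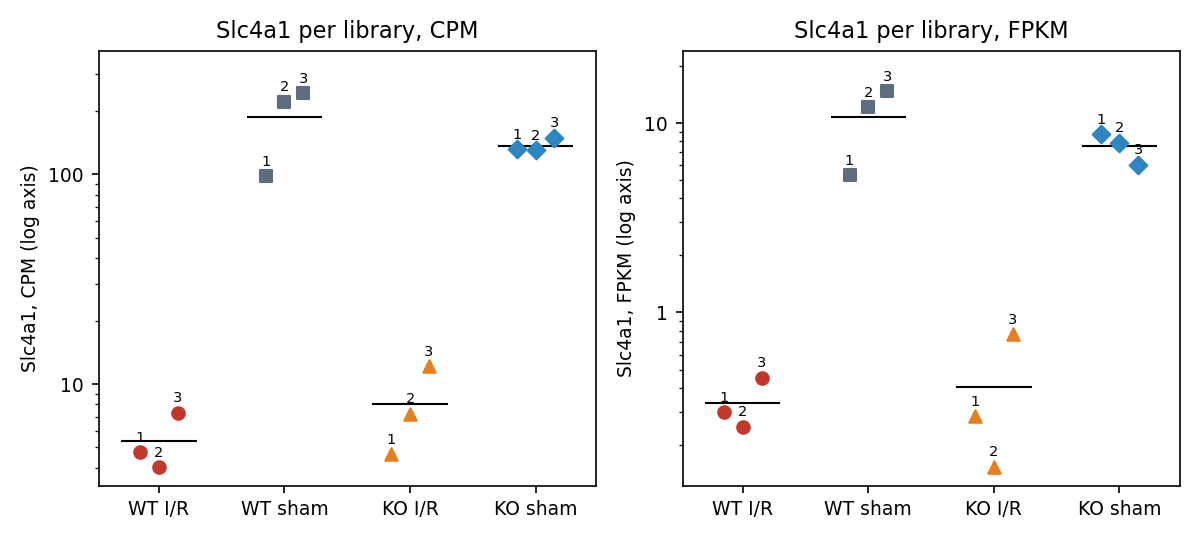
Slc4a1 level in each of the 12 libraries by group, in CPM (left) and in the authors' FPKM (right), both on log axes. Points are libraries with their replicate number and bars are group means; the I/R libraries sit between 4.02 and 12.2 CPM and the sham libraries between 98.2 and 244 CPM.

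The libraries labelled knockout had the same arrangement. KO I/R had 25, 30 and 66 counts, and KO sham had 816, 676 and 557 counts. This was 4.63, 7.22 and 12.2 CPM in KO I/R against 132, 131 and 149 CPM in KO sham, and again the groups did not overlap. Of all tested genes, 17.8% had KO I/R libraries that all lay below the KO sham libraries. KO I/R averaged 8.01 ± 3.84 CPM and KO sham 137 ± 10.5 CPM (SD, n = 3 each). The log2 change was -4.09 ± 0.44 (SE, 95% interval -5.04 to -3.14), the 35th lowest of 5048, against a median of -0.08 for all tested genes. Here too the interval and the rank are descriptions, not tests. In KO I/R 2, the reads recovered from FPKM for Slc4a1 were 14 instead of the 30 in the count column, and with them the log2 change was -4.39.

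The deposited FPKM values, which count fragments relative to transcript length and library size, gave the same gap. Slc4a1 had 0.297, 0.249 and 0.453 FPKM in WT I/R against 5.29, 12.1 and 14.7 FPKM in WT sham. It had 0.284, 0.153 and 0.768 FPKM in KO I/R against 8.75, 7.89 and 6.01 FPKM in KO sham. KO sham 3, the library with the high mitochondrial share, was the highest of its group in CPM and the lowest in FPKM. In whole kidney, fewer intercalated cells and less Slc4a1 RNA per cell cannot be told apart.

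By mean CPM the groups ran, lowest first, WT I/R, KO I/R, KO sham and WT sham, and neighbours with the same operation did not differ beyond their spread. In KO sham against WT sham the log2 difference was -0.45 ± 0.38 (SE, 95% interval -1.28 to 0.37), with an adjusted p of 0.875 by the quasi-likelihood test of edgeR. The 3 KO sham libraries lay inside the range of the WT sham libraries. In KO I/R against WT I/R the log2 difference was 0.58 ± 0.42 (SE, 95% interval -0.33 to 1.49), with an adjusted p of 1 by the same test. These groups overlapped too, and the difference was 0.13 without KO I/R 3 and 0.27 with the recovered reads of KO I/R 2. The change after I/R in the libraries labelled knockout minus that in wild type was 1.03 ± 0.56 (SE, 95% interval -0.20 to 2.26), with an adjusted p of 0.988 by edgeR. That difference was 0.58 without KO I/R 3. In these contrasts edgeR called 0 of 5048 genes (0%). At an unadjusted p under 0.05 there were 285 genes between the sham groups, 140 between the I/R groups and 265 for the interaction. DESeq2 called 28, 2 and 16 genes in these contrasts. The intervals leave room for differences of more than 1 on the log2 scale in either contrast of genotypes within an operation, so equal levels were not shown.

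Other genes of the intercalated cell were set beside Slc4a1, from a list chosen with earlier results of these data known. Of 30 listed genes, 8 are in the table and all 8 were tested. In WT I/R against WT sham 6 fell and 0 rose, where 10.7% of all tested genes fell, and their median log2 change was -1.52. In KO I/R against KO sham the same 6 fell and 0 rose, where 11.5% of all tested genes fell, and the median was -1.81. The 6 genes were Atp6v1b1, Rhcg, Rhbg, Insrr, Bsnd and Kit. Fewer fell in WT when any WT library was left out. The number was 3 on omitting WT I/R 1, 2 on omitting WT I/R 2 and 3 on omitting WT I/R 3. It was 5 on omitting WT sham 1, 3 on omitting WT sham 2 and 4 on omitting WT sham 3. In KO the number was 5 with only the groups of the contrast fitted. Atp6v1b1 and Rhcg were among the genes that fell each time. Atp6v1b1, Atp6v0d2, Rhcg and Rhbg are also held by the lists of V-ATPase subunits or of acid and bicarbonate transport. Of the 4 genes held by no other list, 3 fell in each contrast (Insrr, Bsnd and Kit).

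Atp6v1b1, the V-ATPase subunit that marks intercalated cells, had 105, 75.3 and 86.9 CPM in WT I/R against 299, 397 and 366 CPM in WT sham. It had 46.3, 50.3 and 71.8 CPM in KO I/R against 328, 331 and 301 CPM in KO sham. The groups did not overlap, and the log2 changes were -1.99 in WT (adjusted p = 0.000294, edgeR) and -2.51 in KO (adjusted p = 0.000121, edgeR). Slc4a1 was lower relative to this gene as well. Per 100 counts of Atp6v1b1 there were 4.51 to 8.42 counts of Slc4a1 in WT I/R against 32.9 to 66.7 in WT sham. In the libraries labelled knockout there were 10 to 17.0 in KO I/R against 39.5 to 49.6 in KO sham. Within these libraries Slc4a1 thus lost a larger share of its level than Atp6v1b1, which is a description, since Slc4a1 was chosen for its low level.

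Rhcg, an ammonia transporter of the collecting duct, had log2 changes of -1.56 in WT (adjusted p = 0.00663, edgeR) and -2.27 in KO (adjusted p = 0.00127, edgeR). Per 100 counts of Rhcg, Slc4a1 had 2.72 to 4.91 counts in WT I/R against 27.4 to 59.7 in WT sham. It had 4.17 to 10.2 in KO I/R against 15.4 to 33.1 in KO sham, where the lowest value was that of KO sham 3. Rhcg was at 972 CPM in KO sham 3, against 398 and 399 CPM in the other KO sham libraries. Rhbg, the basolateral partner of Rhcg, had log2 changes of -1.11 in WT and -1.42 in KO (adjusted p = 0.0347 and 0.0111, edgeR). Slc4a1 per 100 counts of Rhbg was 4.39 to 7.09 in WT I/R against 68.6 to 103 in WT sham. Insrr, a receptor kinase that senses alkaline pH and marks type B cells, had log2 changes of -1.75 in WT and -3.38 in KO (adjusted p = 0.0171 and 0.000928, edgeR). Against Insrr, Slc4a1 did not separate KO I/R and KO sham, with 32.5 to 61.7 counts per 100 in KO I/R and 42.4 to 137 in KO sham. Insrr was at 353 CPM in KO sham 3, against 95.8 and 114 CPM in the other KO sham libraries.

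Bsnd, the barttin subunit of renal chloride channels, had log2 changes of -1.51 in WT and -1.57 in KO (adjusted p = 0.0139 and 0.0107, edgeR). Kit, the stem cell factor receptor, had log2 changes of -1.52 in WT and -2.05 in KO (adjusted p = 0.0233 and 0.00584, edgeR). Atp6v0d2, another V-ATPase subunit, and Dmrt2, a transcription factor of type A cells, did not pass the test. Atp6v0d2 had log2 changes of -0.47 in WT and -0.38 in KO, and Dmrt2 had 0.12 in WT and -0.73 in KO. The summed level of the 8 genes was 523 to 618 CPM in WT I/R against 1180 to 1914 CPM in WT sham. It was 388 to 469 CPM in KO I/R against 1308 to 2275 CPM in KO sham. The part of fewer intercalated cells in the level of Slc4a1 was not tested.

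**Figure D2:**
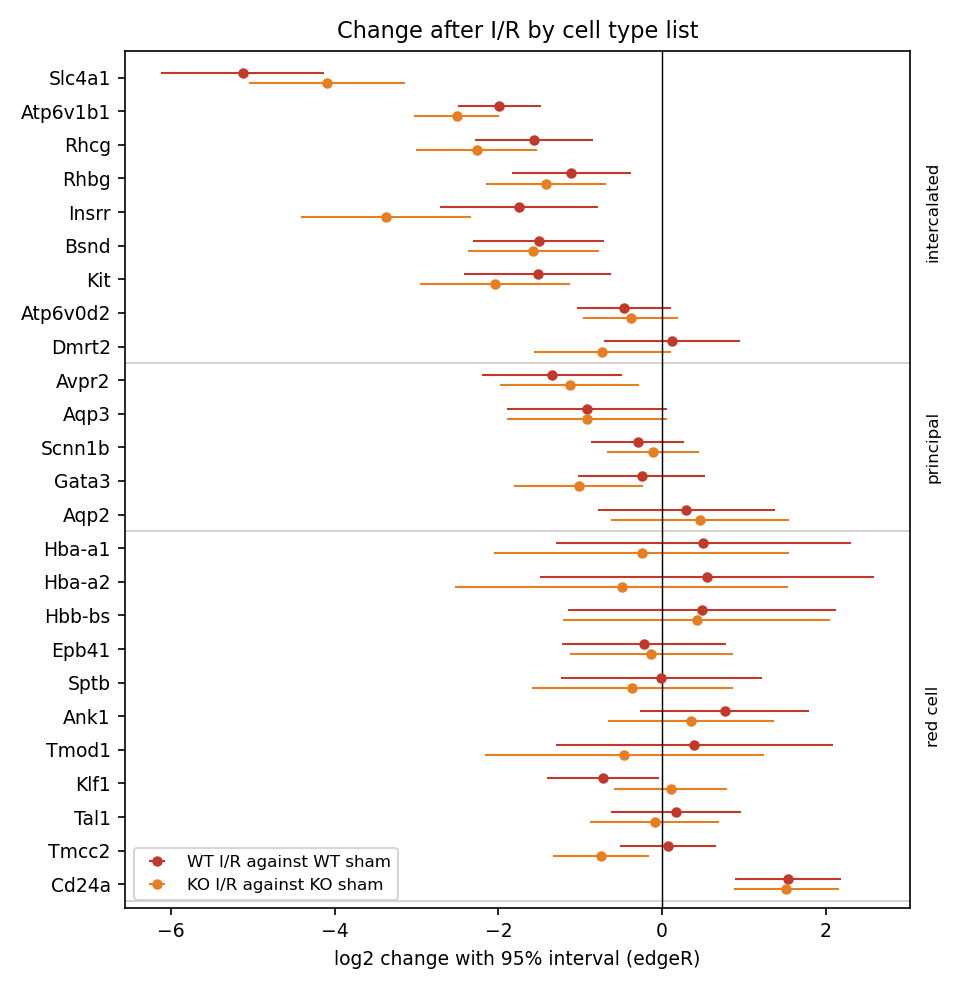
log2 change of Slc4a1 and of tested intercalated cell, principal cell and red cell genes in WT I/R against WT sham and in KO I/R against KO sham, with 95% intervals from edgeR. Slc4a1 lies at -5.12 and -4.09, and Atp6v1b1 at -1.99 and -2.51. The intervals of Slc4a1 are a description, since it was chosen for its low level after I/R. Aqp1 is not drawn.

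The partners of Slc4a1 in acid transport gave mixed counts. Of the 25 listed V-ATPase subunits, 8 are in the table and 7 were tested. Of these 7 genes 1, Atp6v1b1, fell in each contrast and 0 rose, where 10.7% of all tested genes fell in WT and 11.5% in KO. The median was 0.17 in WT and 0.12 in KO. In a list of 34 genes of acid and bicarbonate transport, 8 were tested, of which 4 fell in WT and 5 in KO, and 0 rose, against the same shares of 10.7% and 11.5% for all tested genes. The median was -0.84 in WT and -1.57 in KO. Atp4a, the proton pump subunit of the stomach that is also found in the collecting duct, had 19.3, 14.1 and 18.5 CPM in WT I/R against 140, 221 and 231 CPM in WT sham. It had 13.9, 8.66 and 16.8 CPM in KO I/R against 190, 132 and 35.1 CPM in KO sham, so the groups did not overlap, although KO sham 3 was near KO I/R. Its log2 changes were -3.51 in WT and -3.18 in KO (adjusted p = 0.00104 and 0.00189, edgeR). Car4, a membrane-bound carbonic anhydrase, had log2 changes of -2.65 in WT and -1.94 in KO (adjusted p = 0.000618 and 0.00276, edgeR). Slc26a1, a sulfate transporter, fell in KO by 1.72 on the log2 scale (adjusted p = 0.00575, edgeR), and its log2 change in WT was -0.57 (adjusted p = 0.257, edgeR).

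Among the relatives of Slc4a1 in the SLC4 family, 5 of 10 are in the table and 4 were tested. In sham kidneys, Slc4a1 averaged 7.55 ± 1.40 FPKM in KO sham and 10.7 ± 4.88 FPKM in WT sham (SD, n = 3 each). Slc4a4, the sodium bicarbonate cotransporter of the proximal tubule, had a higher level per length, with 46.1 ± 32.0 FPKM in KO sham and 37.96 ± 14.98 FPKM in WT sham (SD, n = 3 each). Slc4a3, an anion exchanger of heart and brain, averaged 2.43 ± 1.46 FPKM in KO sham and 1.76 ± 0.658 FPKM in WT sham (SD, n = 3 each). None of the 4 passed the test in WT. In KO, Slc4a5, a sodium bicarbonate cotransporter, passed it with a log2 change of -2.49 (adjusted p = 0.0427, edgeR), on 5, 9 and 0 counts in KO I/R against 26, 37 and 21 counts in KO sham. That call was lost in 14 of 21 alternatives. Slc4a4 had log2 changes of -1.01 in WT and -1.02 in KO (adjusted p = 0.181 and 0.168, edgeR), and Slc4a3 had 0.01 in WT and -0.88 in KO (adjusted p = 0.994 and 0.211, edgeR).

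Red cell RNA was read out through the globin genes Hba-a1, Hba-a2 and Hbb-bs, which code for the chains of haemoglobin. Hba-a1 and Hba-a2 are near-identical copies, so the split of reads between them is uncertain and the sum was used. The summed globin level was 2332, 1750 and 2076 CPM in WT I/R against 3048, 796 and 505 CPM in WT sham. It was 3780, 6553 and 742 CPM in KO I/R against 1009, 3988 and 6964 CPM in KO sham. The groups overlapped in both genotypes, and within WT sham, KO I/R and KO sham the globin level spanned 6.04-fold, 8.83-fold and 6.90-fold, while Slc4a1 spanned 2.48-fold, 2.63-fold and 1.14-fold. Within WT I/R the order was the other way, with 1.33-fold for globins and 1.82-fold for Slc4a1. With the recovered reads of KO I/R 2, the spans within KO I/R were 5.09-fold for globins and 4.63-fold for Slc4a1, so the gap there rests on the count column of that library. KO sham 3 had the highest globin level of all 12 libraries and 149 CPM of Slc4a1, while WT sham 3 had the lowest globin level and 244 CPM of Slc4a1. The log2 changes of Hba-a1, Hba-a2 and Hbb-bs were 0.50, 0.55 and 0.49 in WT and -0.25, -0.49 and 0.42 in KO, with adjusted p-values of 0.673 to 0.85 by edgeR.

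**Figure D3:**
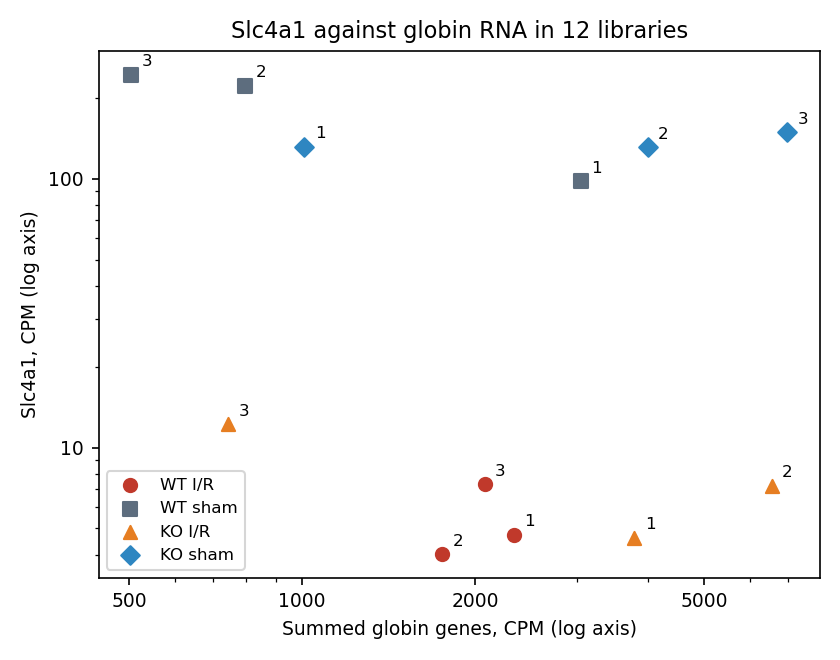
Slc4a1 level against the summed level of the 3 globin genes in CPM (both axes log) in each library, with replicate numbers. Sham and I/R libraries separate along the Slc4a1 axis and overlap along the globin axis.

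Per 1000 globin counts there were 2.03, 2.30 and 3.52 counts of Slc4a1 in WT I/R against 32.2, 279 and 483 in WT sham. There were 1.22, 1.10 and 16.4 in KO I/R against 130, 32.8 and 21.5 in KO sham. The groups did not overlap in either genotype, although KO I/R 3, with the lowest globin level of its group, came near KO sham 3. The mean log2 ratio of Slc4a1 to globins differed by -6.00 between WT I/R and WT sham and by -4.01 between KO I/R and KO sham. Leaving out single libraries gave -7.17 to -5.22 in WT and -5.28 to -3.24 in KO.

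The lowest ratio, 1.10 per 1000 in KO I/R 2, sets the most that red cells could add if red cell RNA held Slc4a1 and globin counts in 1 ratio in every library. On that assumption, red cells could account for at most 54.2%, 47.9% and 31.2% of the Slc4a1 counts in WT I/R against 3.42%, 0.395% and 0.228% in WT sham. The limit was 89.98%, 100% and 6.71% in KO I/R, where the 100% belongs to the library that set the ratio, against 0.844%, 3.36% and 5.13% in KO sham. It was thus loose in 5 of the 6 I/R libraries, where few Slc4a1 counts were left, and low in every sham library. The ratio came from an I/R library, and Slc4a1 was chosen for its low level after I/R. The low limits in sham thus follow in part from that choice. With the recovered reads of KO I/R 2, the limit ran between 26.4% and 45.8% in WT I/R and between 0.193% and 2.89% in WT sham. It ran between 5.67% and 100% in KO I/R and between 0.714% and 4.34% in KO sham. The limit does not hold for red cell precursors if their ratio of Slc4a1 to globin is higher.

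**Figure D4:**
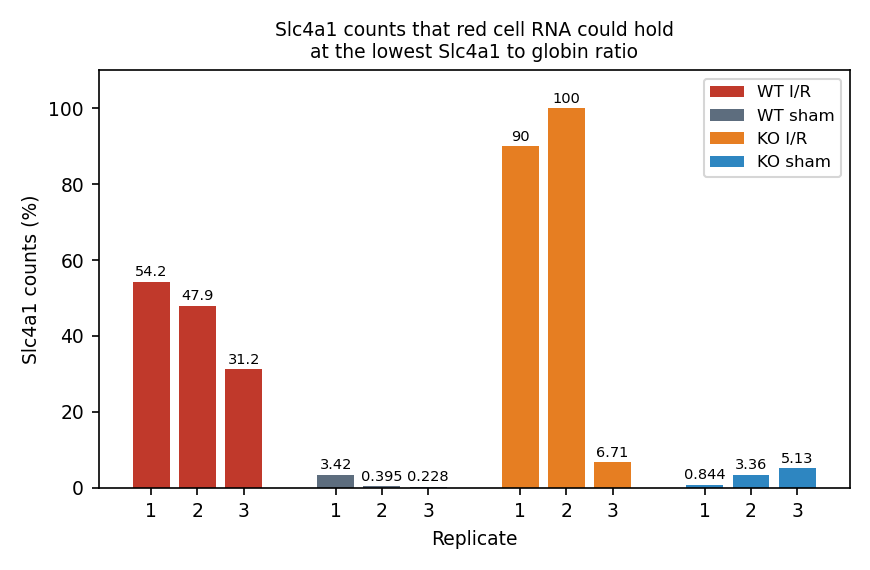
Upper limit of the share of Slc4a1 counts from red cells, in percent, in each library, with the lowest ratio of Slc4a1 to globin counts taken as that of red cells. The sham libraries lie at or below 5.13%, and KO I/R 2 is at 100% by construction.

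Of 55 listed red cell genes, 16 are in the table, of which 12 were tested and Hbb-bh1, an embryonic globin, was at 0 in every library. Klf1, the transcription factor of red cell precursors, had log2 changes of -0.72 in WT and 0.11 in KO (adjusted p = 0.122 and 0.833, edgeR). Tal1, an early blood cell transcription factor, had 0.17 in WT and -0.09 in KO, and Tmcc2 had 0.07 in WT and -0.75 in KO, and neither passed the test. The summed level of the 5 erythroid regulator and late red cell genes in the table was 27.1 to 32.4 CPM in WT I/R against 29.3 to 37.3 CPM in WT sham, where the groups overlapped. In the libraries labelled knockout it was 27.4 to 28.6 CPM in KO I/R against 35.6 to 36.6 CPM in KO sham, without overlap. The part of precursors in the level of Slc4a1 was not tested. In WT I/R against WT sham 0 of the 12 fell and 1 rose, and their median was 0.34. Of all tested genes, 10.7% fell and 10.2% rose in WT. In KO I/R against KO sham 0 of the 12 fell and 2 rose, and their median was -0.11. Of all tested genes, 11.5% fell and 11.9% rose in KO. Without KO I/R 1 the number of red cell genes that rose in KO was 1. Cd24a, a surface protein of many cell types that is also made by tubule cells, rose in both contrasts, with log2 changes of 1.54 in WT and 1.52 in KO (adjusted p = 0.00435 and 0.00454, edgeR). The summed level of the 16 genes was 3344 to 4561 CPM in WT I/R against 1639 to 4034 CPM in WT sham. It was 2757 to 8136 CPM in KO I/R against 2231 to 8006 CPM in KO sham. Cd24a is part of this sum. The 5 globin and heme genes in the table alone summed to 1971 to 2525 CPM in WT I/R against 682 to 3157 CPM in WT sham. In the libraries labelled knockout these 5 genes summed to 889 to 6722 CPM in KO I/R against 1084 to 7008 CPM in KO sham.

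These counts leave out Aqp1, a water channel of the red cell membrane that is also abundant in the proximal tubule and stands on that list too. Aqp1 fell in both contrasts, with log2 changes of -3.38 in WT and -2.51 in KO (adjusted p = 0.000157 and 0.000621, edgeR). With it, 1 of 13 red cell genes fell in each contrast, where 10.7% of all tested genes fell in WT and 11.5% in KO. The summed level of the list was then 3663 to 4795 CPM in WT I/R against 5222 to 6799 CPM in WT sham, without overlap, and the groups labelled knockout still overlapped, with 3183 to 8452 CPM in KO I/R against 4283 to 9333 CPM in KO sham. The red cell side of the comparison thus depends on how Aqp1 is placed. Cd24a, which tubule cells make too, was kept in both versions of the list, and no count or sum was made without it. Bulk values do not say which cells the RNA of either gene came from.

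Principal cells are the other main cell type of the collecting duct. Of 5 tested principal cell genes, 1 fell and 0 rose in WT, where 10.7% of all tested genes fell. In KO 0 passed the test in either direction, where 11.5% of all tested genes fell. The median log2 change was -0.30 in WT and -0.92 in KO. The gene that fell was Avpr2, the vasopressin receptor, with a log2 change of -1.35 (adjusted p = 0.0300, edgeR) in WT and -1.13 (adjusted p = 0.0553, edgeR) in KO. Its call in WT was lost without WT I/R 2, WT I/R 3, WT sham 2 or WT sham 3, with adjusted p-values of 0.0743 to 0.124 by edgeR. The other 4 did not pass the test in either contrast. Aqp3, the basolateral water channel, had log2 changes of -0.92 in WT and -0.92 in KO, and Gata3, a transcription factor, had -0.25 in WT and -1.02 in KO (adjusted p = 0.647 and 0.0595, edgeR). Scnn1b, a subunit of the epithelial sodium channel, had -0.30 in WT and -0.11 in KO. Aqp2, the apical water channel, was the only one of the 5 with positive values, 0.30 in WT and 0.46 in KO (adjusted p = 0.700 and 0.530, edgeR). Per 100 counts of Aqp2 there were 0.162 to 0.358 counts of Slc4a1 in WT I/R against 10.03 to 18.6 in WT sham, and 0.287 to 1.16 in KO I/R against 8.35 to 14.8 in KO sham. Per 100 counts of Aqp3 there were 1.88 to 3.14 counts of Slc4a1 in WT I/R against 41.1 to 44.9 in WT sham, and 1.97 to 12.2 in KO I/R against 35.0 to 53.2 in KO sham. Relative to either water channel, the Slc4a1 groups did not overlap in either genotype.

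The genes whose level across the 12 libraries was nearest to that of Slc4a1 were found by the root mean square difference of log2 CPM, each gene centred on its own mean, over 3728 genes with a mean of at least 5 CPM. Tmem207, a transmembrane protein gene, was nearest at 0.436, against a median of 2.35 for all genes compared. Uroc1, the urocanase of histidine breakdown, followed at 0.581, and Slc5a8, a sodium-coupled monocarboxylate transporter, at 0.709. The next were Etnppl, Dpys, Aspg, Cyp51, Prdm16os, Mcoln3 and Ceacam2, between 0.773 and 0.871. Tmem207 averaged 2.21 CPM in WT I/R against 62.8 CPM in WT sham. It averaged 1.87 CPM in KO I/R against 61.6 CPM in KO sham. None of the intercalated cell genes was among the 10 nearest. Atp6v1b1 ranked 50th, Insrr 62nd, Rhcg 95th, Kit 129th, Bsnd 147th and Rhbg 253rd, while Atp6v0d2 ranked 1091st and Dmrt2 1346th. Aqp1, which the red cell and proximal tubule lists share, ranked 14th, ahead of each intercalated cell gene. The globin genes ranked 3291st for Hba-a1, 3293rd for Hbb-bs and 3474th for Hba-a2. The difference grows as a gene's change after I/R departs from that of Slc4a1, which was chosen by its own change. The ranks thus largely restate the changes after I/R and do not assign Slc4a1 to a cell type.

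**Figure D5:**
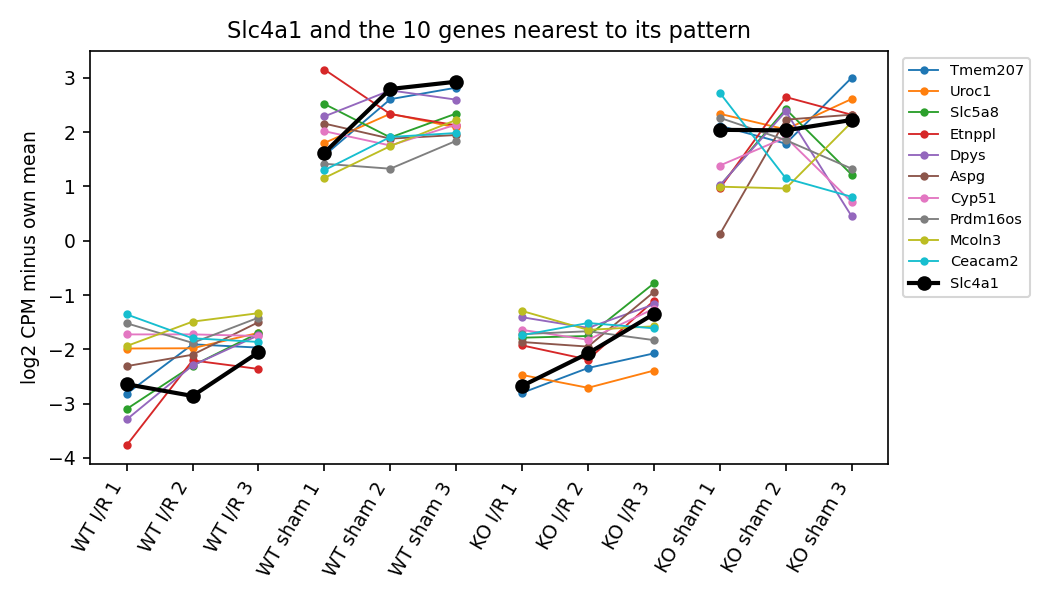
Level of Slc4a1 and of the 10 genes nearest to its pattern, as log2 CPM minus each gene's own mean, in the 12 libraries; lines join the points of a gene within a group. All 11 genes are low in the I/R libraries and high in the sham libraries.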

How the data were processed

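Kidney RNA was extracted with RNeasy and made into paired-end TruSeq libraries, per the labels' protocols. HISAT2 and StringTie were used, per the submitters' processing notes, without versions. The authors deposited whole-number read counts and FPKM per gene side by side, per the file headers. The sources used here name no build, counting rule or strand setting. The table holds 27.4% to 31.6% of each library's estimated total, and 6498 genes are at 0 in every library. The 27.4% is that of KO I/R 2 and rests on its count column, which does not match its FPKM. Listed genes absent from the table have no value here, so their absence does not show that they were not expressed.

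The deposited counts of all 4 groups entered 1 quasi-likelihood model (edgeR 4.0.16, R 4.3.3) after TMM scaling and filterByExpr at a minimum count of 10 and a total of 15. Benjamini-Hochberg adjustment ran over 5048 genes. An adjusted p under 0.05 was called. For KO I/R 2, FPKM was multiplied by each gene's count per FPKM in the other libraries and by a library factor. That factor was the one that brought values nearest to whole numbers. The result lay within 0.05 of a whole read for 100% of 2156 values between 2 and 60. The log2 CPM for likeness used a prior count of 2. Slc4a1 and all lists were chosen with earlier results of these data known. Named were Slc4a1, the globins, tested members of the intercalated cell, V-ATPase, SLC4, principal cell and red cell lists, up to 4 called members of other lists and the 10 nearest genes. Hbb-bh1, below the filter, was named after its values were seen, and some members of the red cell list are not reported here. Aqp1, also on the proximal tubule list, was left out of the joined red cell list. Intercalated cell genes that transport lists also hold were kept. Both choices were reversed as alternatives. Cd24a, on no other list, was kept throughout. Alternatives were other scalings, filters, DESeq2 1.42.0, the replicate block, recovered reads and leaving out libraries. The scripts were tested on simulated data.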

Additional observations from a re-analysis of the deposited data

How the results depend on the processing

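The log2 changes of Slc4a1 kept their direction and, where tested, their side of the threshold in all alternatives run. Leaving out 1 library gave -5.43 to -4.90 in WT, -4.54 to -3.81 in KO, -0.76 to -0.23 between the sham groups, 0.13 to 0.87 between the I/R groups (KO against WT) and 0.58 to 1.34 for the interaction. Adjusted p over the alternatives was 0.740 to 0.9998, 0.950 to 1 and 0.746 to 0.99997 for the last 3. Intercalated cell genes lower in WT numbered 2 to 6 without single libraries. Red cell genes higher in KO numbered 1 to 2 without single libraries. With only the groups of the contrast fitted, 1 red cell gene was lower in WT (Klf1) and 1 was higher in KO. In KO 1 red cell gene (Tmcc2) was lower with DESeq2, with the recovered reads, and with these reads and without KO sham 3, which was chosen after seeing the data. The cause of these changes was not tested. Also chosen after seeing the data were the list members: with Aqp1 kept, 1 red cell gene was lower in WT and 1 in KO, and without intercalated cell genes that another list holds, 3 were lower in WT and 3 in KO, out of fewer genes. Over all genes, 1057 were called in WT and 1185 in KO. The counts were 1995 in WT and 364 in KO with only the groups of the contrast fitted, 527 to 1425 in WT and 834 to 1367 in KO without single libraries, and 2141 in WT and 1818 in KO without KO sham 3 and with the recovered reads. For KO sham against WT sham, 5 genes were called with no filter. Whole-library totals, run together with the recovered reads of KO I/R 2, moved the median log2 change by 0.14 in WT and 0.11 in KO. This setting gave 872 higher and 469 lower genes in WT, and 707 higher and 494 lower in KO. The main fit gave 517 higher and 540 lower in WT, and 603 and 582 in KO. The recovered reads alone gave 744 higher and 740 lower in WT, and 668 and 714 in KO. Same-numbered libraries did not deviate together, with 5 of 18 pairs over a correlation of 0.1 and 0 of 12 libraries nearest to their own number in every other group. With the replicate block, the values were -5.08 in WT, -4.20 in KO, -0.36 between the sham groups, 0.52 between the I/R groups and 0.88 for the interaction, with 1031 genes called in WT and 1134 in KO. Depth limits the I/R levels, which rest on 22 to 66 counts.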

Other observations

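Genes listed for other cell types of the kidney and for tubular injury did not all move with Slc4a1: some lists fell and others rose. The part of these cell types in the level of Slc4a1 was not tested. Of 8 tested proximal tubule genes, 6 fell in WT I/R against WT sham and 4 in KO I/R against KO sham, and 0 rose. Of all tested genes, 10.7% fell and 10.2% rose in WT, and 11.5% fell and 11.9% rose in KO. Their summed level was 7597 to 11620 CPM in WT I/R against 24684 to 38581 CPM in WT sham. Of 4 tested genes of the distal nephron, Henle's loop included, 2 fell in each contrast (Ppp1r1b and Slc8a1). All 5 tested genes of tubular injury rose in each contrast, among them Havcr1 and Lcn2, with medians of 4.79 in WT and 4.29 in KO on the log2 scale. Both tested neutrophil genes (Csf3r and Mmp8) rose in each contrast, and of 5 tested monocyte and macrophage genes 2 fell and 1 rose in each. The call of Csf3r in KO was lost without KO I/R 2, KO sham 1 or KO sham 2 (adjusted p of 0.0541 to 0.0684 by edgeR), which leaves 1 neutrophil gene. With only the groups of the contrast fitted, Csf3r and Mmp8 both lost their call in KO (adjusted p = 0.0607 and 0.0524, edgeR). The call of Cx3cr1, 1 of the 2 that fell, was lost in WT on omitting WT I/R 1 or else WT I/R 3 (adjusted p = 0.0577 and 0.0526, edgeR). In KO it was lost without KO I/R 1 or KO sham 1 (adjusted p = 0.0693 and 0.0894, edgeR). Fitting only the groups of the contrast also lost the call of Cx3cr1 in KO (adjusted p = 0.0840, edgeR). Whole-library totals, run together with the recovered reads of KO I/R 2, lost it in WT (adjusted p = 0.0513, edgeR). The single tested endothelial gene and the single tested platelet gene did not pass the test in either contrast.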
